A study of Homo sapiens with 8 samples.

Results

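KLF9 and 9 further Kruppel-like factor genes (KLF2, KLF3, KLF4, KLF5, KLF6, KLF7, KLF10, KLF11 and KLF13) were followed by their symbols through the count tables, which made 10 of 56832 gene rows. All 10 passed the filter on low counts and were among the 14611 genes tested. The RNA came from Nthy-ORI, an immortalised epithelial line from normal human thyroid. Every culture first spent 24 h without hormone, in phenol-red-free medium with charcoal-stripped serum. The groups then received 10 nM T3, the active thyroid hormone, for 6 h, NaOH vehicle for 6 h, 10 nM T3 for 24 h, or NaOH vehicle for 24 h, with 2 libraries each. Ribosomal RNA was removed from total RNA before library preparation with a KAPA HyperPrep kit. The series asks how T3 acts on transcription through the receptor TR-beta, and these libraries give the transcripts at each time. A single cell line was used, and no label ties the replicates to separate cultures, so the spread behind the p-values may be technical.

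Kruppel-like factors are zinc finger transcription factors that bind GC-rich and CACCC elements, and they differ mainly in the partners they bring to a gene. KLF2, KLF4, KLF5, KLF6 and KLF7 act largely as activators through histone acetyltransferases, KLF3 represses through CtBP proteins, and KLF9, KLF10, KLF11 and KLF13 bind the corepressor SIN3A. KLF9 is also an established direct target of thyroid hormone receptors and of the glucocorticoid receptor, which is why it is commonly read as a sign of hormone action.

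Reads counted in genes came to between 2517983 and 8201606 per library, so that the floor of 3 counts lay between 0.347 and 1.23 CPM (counts per 1e6 counts of the library). They made up 16.5% and 17.1% of the reads in the libraries of T3 at 6 h, 12.9% and 15.4% with vehicle at 6 h, 22.8% and 24.4% in the libraries labelled T3 at 24 h, and 19.5% and 21.7% in those labelled vehicle at 24 h. Of 7 thyroid follicular markers, only PAX8 and FOXE1 averaged at least 1 CPM in any group, while thyroglobulin (TG), the TSH receptor (TSHR), SLC5A5 and NKX2-1 averaged 0 to 0.958 CPM. Of 4 epithelial markers, the keratins KRT8 and KRT18 averaged 100.5 to 287.7 CPM, while EPCAM averaged 1.80 to 9.63 CPM and CDH1, which encodes E-cadherin, 0 to 1.27 CPM. The 4 endothelial and 3 thyroid C cell markers summed to at most 1.27 CPM in any library, and the 4 immune markers to at most 3.01 CPM. The 5 fibroblast markers summed to 99.9 and 106.6 CPM with T3 and 192.3 and 192.7 CPM with vehicle at 6 h, and to 609.5 and 704.7 CPM in the libraries labelled T3 and 1125 and 1228 CPM in those labelled vehicle at 24 h. COL1A1 made up almost all of that sum, and the part of these differences in the results below was not tested.

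The check of the T3 labels came out in opposite directions at the 2 times. KLF9 and HR, which encodes a nuclear corepressor and is another classical target, were higher with T3 at 6 h and lower in the libraries labelled T3 at 24 h. HR averaged 108.8 ± 9.92 CPM with T3 and 63.5 ± 7.01 CPM with vehicle at 6 h (SD, n = 2 each), a log2 fold change of 0.77 (edgeR adjusted p = 0.012, SE 0.17) that did not pass without any 1 of the 4 libraries of 6 h (highest edgeR adjusted p = 0.187). In the 24 h libraries it had 3 counts over the libraries labelled T3 and 45 over those labelled vehicle, a ratio of 0.0491 with an exact 95% counting interval of 0.00976 to 0.153. HR and KLF9 both go against the labels of that time, so every 24 h direction below is that of the libraries as labelled. HR was also lower at 24 h than at 6 h under either label, at 0.213 CPM labelled T3 and 4.09 CPM labelled vehicle. COL1A1 (lower) and SKIL (higher), also called at both times, kept their direction in the libraries labelled T3. COL1A1 averaged 101.1 CPM with T3 and 188.8 CPM with vehicle at 6 h, and 655.7 and 1174 CPM at 24 h. Neither kept its 24 h call when trends with GC content and exon length were removed. HEG1 (log2 fold change 1.45 at 6 h and -1.13 at 24 h) and PHLDB2 (0.95 and -0.57) were called at both times in opposite directions. Both had been ranked for their likeness to KLF9. Whether the 24 h labels hold was not tested. THRB, the gene for TR-beta itself, averaged 4.71 ± 1.02 CPM with T3 and 7.82 ± 1.68 CPM with vehicle at 6 h, and 34.7 ± 4.42 CPM in the libraries labelled T3 and 35.2 ± 8.19 CPM in those labelled vehicle at 24 h (edgeR adjusted p = 0.3 at 6 h and 0.946 at 24 h).

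Between T3 and vehicle, KLF9 was the single member past the threshold at either time. It was 1 member of 10 called higher at 6 h, where 3.78% of all tested genes were called higher, 3.86% lower and 7.64% in either direction. KLF5 made it 2 members without either vehicle library of 24 h, while the count over all genes was 131 without vehicle replicate 1 of 6 h, against 1117 with all libraries. After 24 h it was 1 of 10 called lower, where 5.58% of all genes were called higher, 7.75% lower and 13.3% in either direction. The median log2 fold change of the 10 members was 0.18 at 6 h and -0.07 at 24 h, against -0.02 and -0.01 over all genes tested.

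KLF9 (chromosome 9, 70384597 to 70414624, minus strand, GRCh38) had 37 and 70 counts in the libraries of T3 at 6 h, against 3 and 2 counts with vehicle. These corresponded to 13.4 and 14.1 CPM with T3 and to 0.904 and 0.818 CPM with vehicle. Both T3 libraries stood far above both vehicle libraries, whose levels lay at or under the floor of 3 counts. The log2 fold change was 3.95 (edgeR adjusted p = 0.0002, SE 0.50), and the ratio of pooled counts was 15.9 with an exact 95% counting interval of 6.62 to 50.1.

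At 24 h the order was turned round. The libraries labelled T3 had 18 and 29 KLF9 counts (2.79 and 3.35 CPM), against 92 and 210 counts (20.8 and 31.4 CPM) in the libraries labelled vehicle. Neither time had any overlap between treatments, and the vehicle libraries of 24 h held the highest KLF9 levels of the series. The log2 fold change was -3.08 (edgeR adjusted p = 6.75e-05, SE 0.31), and the pooled counts had a ratio of 0.115 with an interval of 0.0824 to 0.156. The T3 response at 24 h less that at 6 h was -7.03 (edgeR adjusted p = 4.08e-06, SE 0.57). KLF9 was 1 of 10 members called in that comparison, where 1.84% of all genes were called in either direction, 0.849% as higher and 0.992% as lower. Without vehicle replicate 1 of 24 h, 3 members were called, KLF5 and KLF10 besides KLF9.

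Between times, KLF9 differed in opposite directions under the 2 treatments as labelled, which rests on the 24 h labels that KLF9 and HR go against. In vehicle it averaged 26.1 ± 7.50 CPM at 24 h and 0.861 ± 0.0607 CPM at 6 h, a log2 fold change of 4.88 (edgeR adjusted p = 7.82e-08, SE 0.46). In the libraries labelled T3 it averaged 3.07 ± 0.399 CPM at 24 h and 13.7 ± 0.488 CPM at 6 h, a log2 fold change of -2.14 (edgeR adjusted p = 1.7e-05, SE 0.33). The level labelled T3 at 24 h therefore lay above that of vehicle at 6 h and below those of T3 at 6 h and vehicle at 24 h. KLF9 passed the threshold in every alternative run for T3 over vehicle at each time and for 24 h over 6 h in each treatment. Its log2 fold changes for T3 over vehicle lay between 3.90 and 4.04 at 6 h and between -3.37 and -2.75 at 24 h. Those for 24 h over 6 h lay between 4.55 and 5.16 in vehicle and between -2.47 and -2.03 in the libraries labelled T3.

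**Figure D1:**
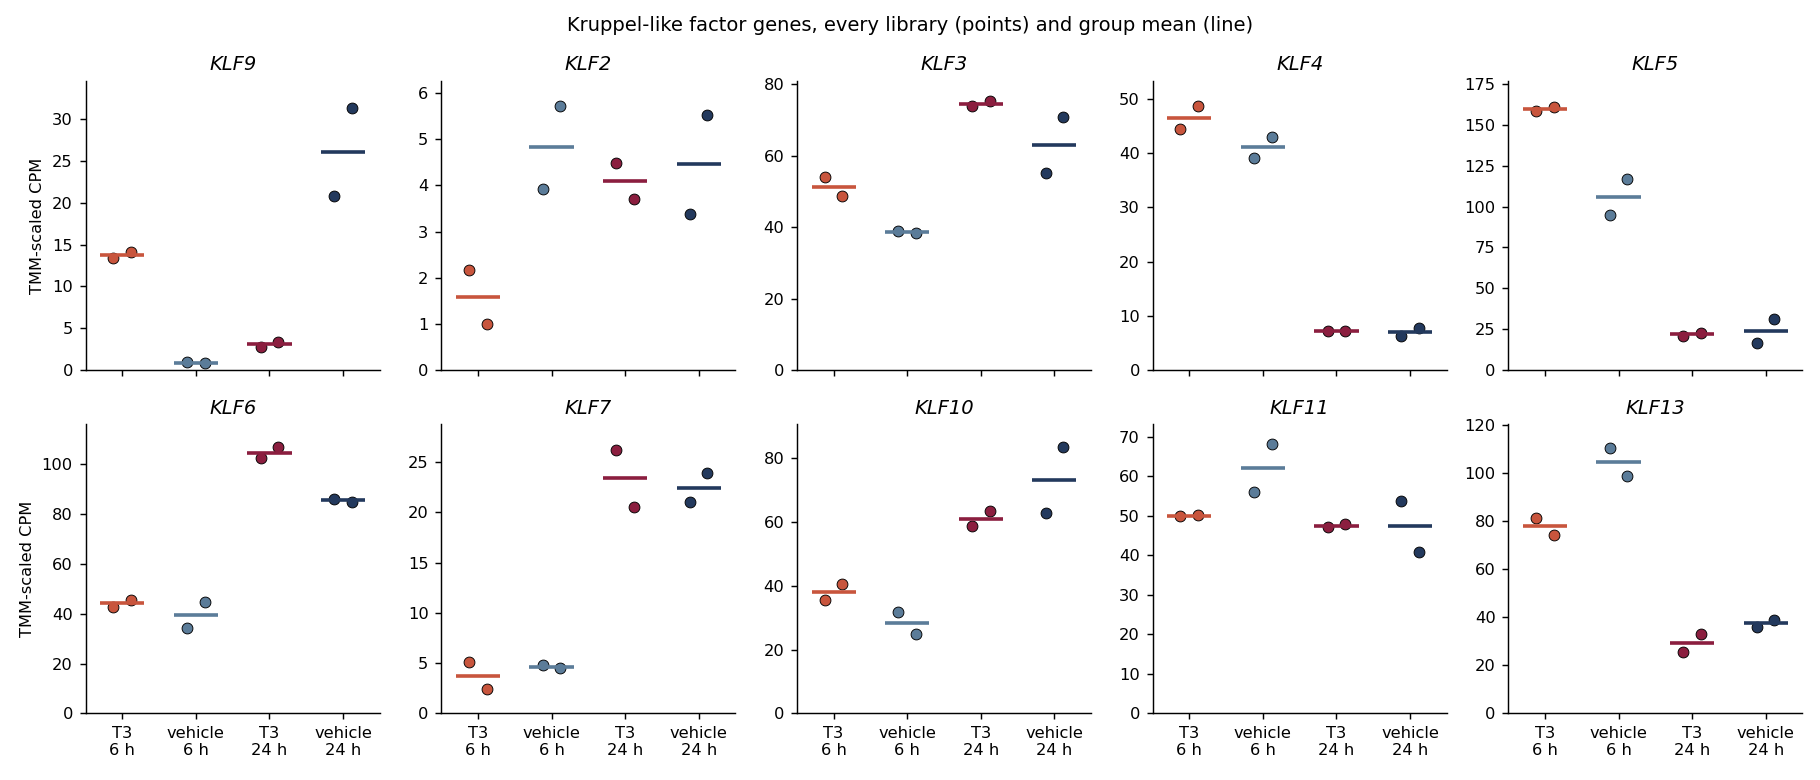
TMM-scaled CPM (vertical axes, each from 0) of the 10 Kruppel-like factor genes in T3 and vehicle libraries at 6 h and 24 h, with 1 point per library and a line at the mean of the 2 libraries. KLF9 is high with T3 at 6 h (13.4 and 14.1 CPM) and with vehicle at 24 h (20.8 and 31.4 CPM). KLF4, KLF5 and KLF13 are lower, and KLF6, KLF7 and KLF10 higher, at 24 h than at 6 h in both treatments. Between times, 64.5% of all genes were called in vehicle and 70.4% in the libraries labelled T3.

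The sequence before the start of KLF9 differed in composition from most promoters. Windows of 300 bases, from 250 before to 50 after each RefSeq start on GRCh38.p14, were matched for 8 of the 10 members, with 13 windows in all. The KLF9 window held 32.7% G and C, at percentile 2.36 of 35116 windows whose median was 58.7%. It is printed with those of KLF13 and KLF4, which were lower at 24 h than at 6 h, and of KLF6, which was higher. Capitals mark matches on either strand to the GC box GGGCGG, the CACCC box CACCC, the CCAAT box CCAAT and the E-box CACGTG, where a GC box and a CACCC box may share bases.
KLF9, chr9:70414608-70414907, minus strand: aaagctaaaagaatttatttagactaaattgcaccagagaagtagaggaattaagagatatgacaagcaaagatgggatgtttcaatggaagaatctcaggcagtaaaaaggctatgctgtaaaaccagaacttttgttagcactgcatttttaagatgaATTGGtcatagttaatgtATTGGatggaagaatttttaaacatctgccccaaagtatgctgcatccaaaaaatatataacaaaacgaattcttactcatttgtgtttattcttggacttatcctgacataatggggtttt
KLF13, chr15:31326585-31326884, plus strand: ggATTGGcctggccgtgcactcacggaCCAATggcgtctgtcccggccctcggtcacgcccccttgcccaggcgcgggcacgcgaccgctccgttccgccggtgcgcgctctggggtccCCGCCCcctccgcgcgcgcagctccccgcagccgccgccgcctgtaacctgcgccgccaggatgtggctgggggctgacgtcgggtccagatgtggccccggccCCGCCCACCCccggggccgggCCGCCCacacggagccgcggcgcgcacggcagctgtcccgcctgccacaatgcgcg
KLF4, chr9:107489720-107490019, minus strand: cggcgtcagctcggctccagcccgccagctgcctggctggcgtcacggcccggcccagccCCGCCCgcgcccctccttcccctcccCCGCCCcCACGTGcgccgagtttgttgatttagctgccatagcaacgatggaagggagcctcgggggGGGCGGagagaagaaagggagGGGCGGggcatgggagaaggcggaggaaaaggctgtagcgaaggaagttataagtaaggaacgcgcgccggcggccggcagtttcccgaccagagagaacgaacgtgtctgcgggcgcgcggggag
KLF6, chr10:3785160-3785459, minus strand: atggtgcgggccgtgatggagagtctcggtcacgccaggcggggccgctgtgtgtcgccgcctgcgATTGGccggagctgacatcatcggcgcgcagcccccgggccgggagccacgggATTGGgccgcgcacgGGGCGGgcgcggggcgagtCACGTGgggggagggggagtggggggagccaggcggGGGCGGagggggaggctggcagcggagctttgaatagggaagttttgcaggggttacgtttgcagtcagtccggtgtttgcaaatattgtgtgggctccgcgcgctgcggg
The KLF9 window had 2 CCAAT matches and no match to the GC box, the CACCC box, or the nuclear receptor half-site AGGTCA. A GC box was also absent from a KLF5 window (40.7% G and C) and from KLF7 windows of 43.0%, 56.7% and 42.7%. The remaining windows that are not printed held GC boxes. The KLF13 window had 3 GC boxes, 1 of them running into a CACCC match, and 2 CCAAT matches. The KLF4 window had 4 GC boxes and 1 E-box, and the KLF6 window 2 GC boxes, 2 CCAAT matches and 1 E-box. Of all windows, 45.0% held a GC box, 59.9% a CACCC match, 13.8% an AGGTCA match, 34.6% a CCAAT match and 7.26% an E-box. These matches describe the letters of the windows alone, and the start sites in RefSeq and in the annotation used for gene positions need not coincide.

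Among the activators, KLF5, a factor of proliferating epithelia, had the largest counts in each of the 6 h libraries. It stood at 158.5 and 161.1 CPM with T3 and at 94.6 and 117.0 CPM with vehicle at 6 h, without overlap. Its log2 fold change of 0.60 (SE 0.20) missed the threshold (edgeR adjusted p = 0.073), but it passed in 5 of 15 alternatives. The lowest value came with only the 6 h libraries fitted (log2 fold change 0.59, edgeR adjusted p = 0.000335, SE 0.12). By 24 h it stood at 21.1 and 22.8 CPM in the libraries labelled T3, between the 16.5 and 31.2 CPM of those labelled vehicle. The difference of its T3 responses was -0.76 (edgeR adjusted p = 0.216, SE 0.30).

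KLF4, which acts in epithelial differentiation and in reprogramming to pluripotency, had 44.5 and 48.7 CPM with T3 and 39.2 and 43.0 CPM with vehicle at 6 h. At the later time it had 7.13 and 7.29 CPM in the libraries labelled T3, within the 6.33 and 7.77 CPM of those labelled vehicle. Its log2 fold change for T3 was 0.19 (95% interval -0.23 to 0.60) at 6 h and 0.02 (interval -0.50 to 0.54) at 24 h. The larger contrast for KLF4 was thus between times rather than treatments.

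KLF6, an early-response gene in many cell types, had 42.7 and 45.7 CPM with T3 and 34.4 and 44.6 CPM with vehicle at 6 h, which overlapped. At 24 h it had 102.5 and 106.9 CPM in the libraries labelled T3 and 86.1 and 84.9 CPM in those labelled vehicle. Those groups were apart, but the log2 fold change of 0.29 (SE 0.14) did not pass (edgeR adjusted p = 0.178). KLF7, known for its part in neuronal differentiation, had 5.07 and 2.41 CPM with T3 and 4.82 and 4.50 CPM with vehicle at 6 h. In the 24 h libraries it had 26.2 and 20.6 CPM in the libraries labelled T3 and 21.0 and 23.9 CPM in those labelled vehicle. The groups of KLF7 overlapped at both times (edgeR adjusted p = 0.604 at 6 h and 0.93 at 24 h).

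KLF2, a regulator of quiescence best known from endothelium, had few counts at 6 h. There were 6 and 5 counts with T3, against 13 and 14 with vehicle, which gave 2.17 and 1.01 CPM with T3 and 3.92 and 5.73 CPM with vehicle. Its log2 fold change of -1.68 had an interval of -2.98 to -0.37 and did not pass (edgeR adjusted p = 0.108), except with only the 6 h libraries fitted (edgeR adjusted p = 0.0143). After 24 h it had 4.50 and 3.70 CPM in the libraries labelled T3, inside the 3.39 and 5.53 CPM of those labelled vehicle.

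Among the repressors, KLF3, the CtBP-binding member, had 53.9 and 48.7 CPM with T3 and 38.9 and 38.5 CPM with vehicle at 6 h. By 24 h it had 73.8 and 75.2 CPM in the libraries labelled T3 and 55.1 and 70.9 CPM in those labelled vehicle. The groups did not overlap at either time, yet the log2 fold changes of 0.40 (SE 0.18) and 0.23 (SE 0.15) missed the threshold (edgeR adjusted p = 0.179 at 6 h and 0.329 at 24 h). Exons of KLF3 share 266 bases with an antisense gene, KLF3-AS1, which had no row under that symbol in the counts. The strand setting of the counting is not given in the sources used here, so reads of the pair cannot be told apart.

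KLF10, an early target of TGF-beta, had 35.5 and 40.6 CPM with T3 and 31.6 and 25.0 CPM with vehicle at 6 h, a log2 fold change of 0.42 (edgeR adjusted p = 0.218, SE 0.20). At the later time it had 58.8 and 63.3 CPM in the libraries labelled T3 and 62.8 and 83.3 CPM in those labelled vehicle, which overlapped, with a log2 fold change of -0.27 (edgeR adjusted p = 0.314, SE 0.17). The signs of KLF10, like those of KLF5 (0.60 at 6 h and -0.16 at 24 h), were those of KLF9 at both times. Without vehicle replicate 2 of 24 h, however, the 24 h values were 0.41 for KLF5 and -0.05 for KLF10. Both genes changed by much less than KLF9 and were past the threshold at neither time. The difference of the T3 responses of KLF10 was -0.69 (edgeR adjusted p = 0.197, SE 0.26).

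KLF11, a close relative of KLF10 that also responds to TGF-beta, had 49.9 and 50.3 CPM with T3 and 56.1 and 68.3 CPM with vehicle at 6 h. At 24 h it had 47.1 and 47.9 CPM in the libraries labelled T3, within the 53.8 and 41.0 CPM of those labelled vehicle. Its log2 fold change was -0.30 (interval -0.68 to 0.07) at 6 h and 0.01 (interval -0.34 to 0.36) at 24 h. KLF11 shares 416 exon bases with the antisense gene AC104794.4, which had 1 count in all 8 libraries together.

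KLF13, the closest relative of KLF9, had 81.4 and 74.2 CPM with T3 and 110.3 and 98.6 CPM with vehicle at 6 h. In the 24 h libraries it had 25.7 and 32.8 CPM in the libraries labelled T3 and 36.2 and 39.0 CPM in those labelled vehicle. Every library labelled T3 lay below both vehicle libraries of its time. The log2 fold changes were -0.43 (edgeR adjusted p = 0.105, SE 0.16) at 6 h and -0.36 (edgeR adjusted p = 0.161, SE 0.16) at 24 h. With only the 6 h libraries fitted, KLF13 passed at that time (edgeR adjusted p = 0.00846). The responses of KLF13 at the 2 times had a difference of 0.08 (interval -0.40 to 0.56).

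**Figure D2:**
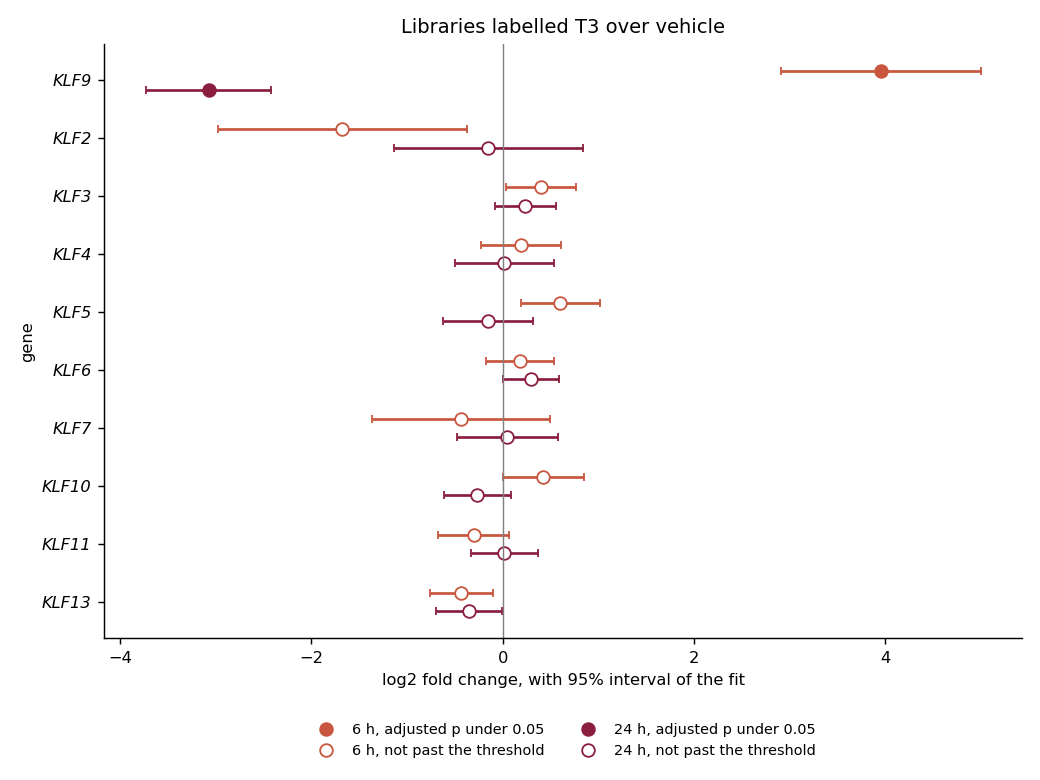
Log2 fold change of libraries labelled T3 over vehicle (horizontal axis) for each gene at 6 h and 24 h, with the 95% interval of the edgeR fit as bars and filled points past the threshold. KLF9 stands at 3.95 at 6 h and -3.08 at 24 h, and no other gene has a filled point.

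Time moved most of the family in both treatments. In vehicle, 5 of 10 members were higher at 24 h than at 6 h and 3 were lower, where 31.9% of all genes were called higher and 32.6% lower. In the libraries labelled T3, 5 were higher and 4 lower, where 35.1% and 35.2% of all genes were. With most of the transcriptome past the threshold between times (64.5% in vehicle and 70.4% with T3), these counts are close to the background. The labels name no batch, so that time and any handling that differed between times cannot be told apart.

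KLF4, KLF5 and KLF13 were lower at 24 h in both treatments. KLF5 averaged 21.9 ± 1.20 CPM at 24 h and 159.8 ± 1.84 CPM at 6 h with T3, and 23.9 ± 10.4 CPM at 24 h and 105.8 ± 15.8 CPM at 6 h with vehicle. Its log2 fold changes were -2.86 (SE 0.21) with T3 and -2.11 (SE 0.22) with vehicle. KLF4 averaged 7.21 ± 0.110 CPM at 24 h and 46.6 ± 2.94 CPM at 6 h with T3, and 7.05 ± 1.02 CPM at 24 h and 41.1 ± 2.67 CPM at 6 h with vehicle. Its log2 fold changes were -2.69 (SE 0.21) with T3 and -2.52 (SE 0.23) with vehicle. KLF13 fell by 1.40 on the log2 scale with T3 (SE 0.16) and by 1.47 with vehicle (SE 0.16). The largest edgeR adjusted p of these 3 genes was 6.54e-07.

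KLF6, KLF7 and KLF10 were higher at 24 h in both treatments. KLF7 averaged 23.4 ± 3.97 CPM at 24 h and 3.74 ± 1.88 CPM at 6 h with T3, a log2 fold change of 2.75 (SE 0.33), and 22.5 ± 2.05 CPM at 24 h and 4.66 ± 0.227 CPM at 6 h with vehicle, a log2 fold change of 2.26 (SE 0.34). KLF6 rose by 1.24 on the log2 scale with T3 (SE 0.15) and by 1.13 with vehicle (SE 0.16). KLF10 rose by 0.67 with T3 (edgeR adjusted p = 0.00287, SE 0.18) and by 1.36 with vehicle (edgeR adjusted p = 8.32e-06, SE 0.19).

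KLF3, KLF2 and KLF11 gave time changes that depended on the correction. KLF3 had log2 fold changes of 0.54 with T3 (edgeR adjusted p = 0.00538, SE 0.16) and 0.71 with vehicle (edgeR adjusted p = 0.00142, SE 0.17), which became -0.17 and 0.06 when the trends with GC content and exon length were removed, neither past the threshold, and the T3 value also did not pass without T3 replicate 2 of 6 h. KLF2 had 1.46 with T3 (edgeR adjusted p = 0.0332, SE 0.58) and -0.07 with vehicle (edgeR adjusted p = 0.914), and with that correction 3.27 and 1.44, both past the threshold. Without T3 replicate 2 or vehicle replicate 2 of 6 h the T3 value of KLF2 did not pass, and it was 0.90 at the lowest. KLF11 had -0.08 with T3 and -0.40 with vehicle (edgeR adjusted p = 0.695 and 0.0552), and the second became -0.59 with the correction and passed, as it did without vehicle replicate 1 of 24 h. KLF3 has the lowest GC content of the 10 transcripts (41.5%) and KLF2 the highest (65.2%).

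**Figure D3:**
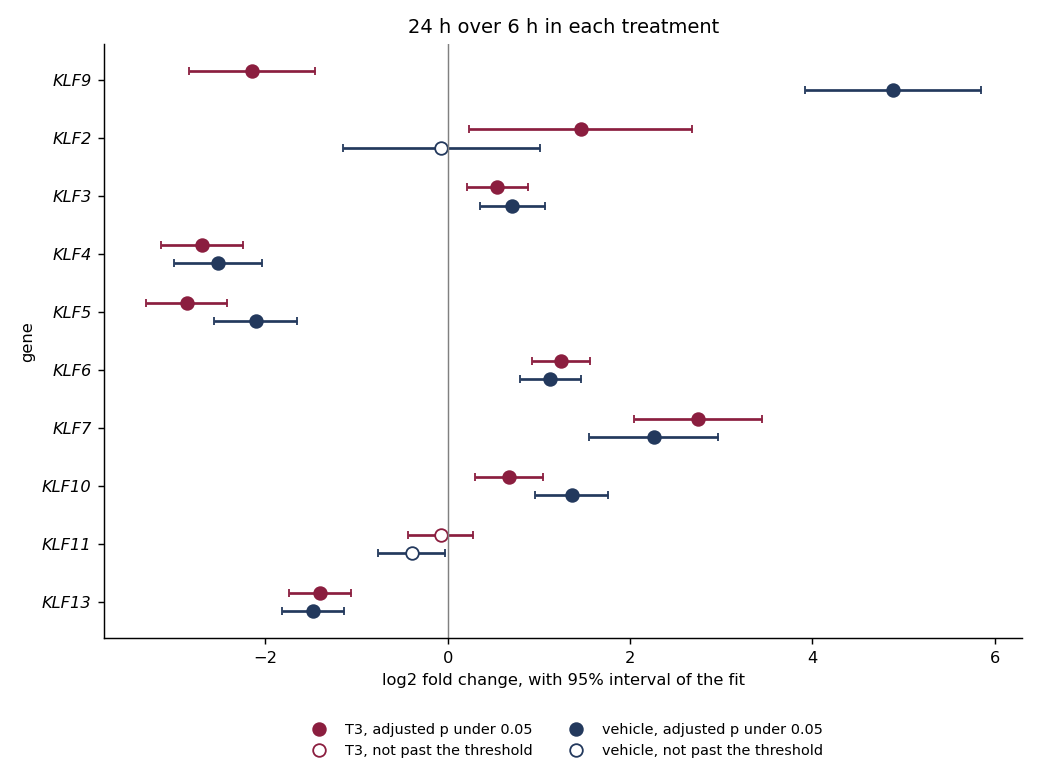
Log2 fold change of 24 h over 6 h (horizontal axis) for each gene in the libraries labelled T3 and in vehicle, with the 95% interval of the edgeR fit as bars and filled points past the threshold. KLF9 goes to -2.14 with T3 and 4.88 with vehicle, while KLF4, KLF5 and KLF13 are negative and KLF6, KLF7 and KLF10 positive in both; with GC and length correction KLF3 turns to -0.17 with T3 and KLF2 to 1.44 with vehicle.

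The make-up of the family was read as CPM per kilobase of exon, which allows genes to be set beside each other. Summed over the 10 genes, the level was 101.0 and 102.3 with T3 and 81.3 and 90.3 with vehicle at 6 h, and 69.1 and 71.6 in the libraries labelled T3 and 68.0 and 80.5 in those labelled vehicle at 24 h. At 6 h, KLF5 held 40.3% and 40.4% of that sum with T3 and 29.9% and 33.3% with vehicle, more than any other member in each of the 4 libraries. At 24 h, KLF6 led in the libraries labelled T3 with 24.2% and 24.3%, and KLF10 in those labelled vehicle with 23.1% and 25.8%.

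With T3 at 6 h the order from the highest mean was KLF5, KLF4, KLF11, KLF10, KLF13, KLF3, KLF6, KLF9, KLF2 and KLF7, where the libraries overlapped between KLF13 and KLF3 and between KLF2 and KLF7. With vehicle at 6 h it was KLF5, KLF11, KLF4, KLF13, KLF10, KLF6, KLF3, KLF2, KLF7 and KLF9, with overlaps between KLF4 and KLF13 and among KLF10, KLF6 and KLF3. In the libraries labelled T3 at 24 h it was KLF6, KLF10, KLF3, KLF11, KLF5, KLF13, KLF7, KLF2, KLF4 and KLF9, and neighbours from KLF13 to KLF4 overlapped. In those labelled vehicle at 24 h it was KLF10, KLF6, KLF11, KLF3, KLF5, KLF9, KLF13, KLF7, KLF2 and KLF4, with overlaps between KLF11 and KLF3, from KLF5 to KLF13 and from KLF7 to KLF4. KLF9 held 2.61% of the sum with T3 and 0.195% with vehicle at 6 h, and 0.843% in the libraries labelled T3 and 6.72% in those labelled vehicle at 24 h.

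**Figure D4:**
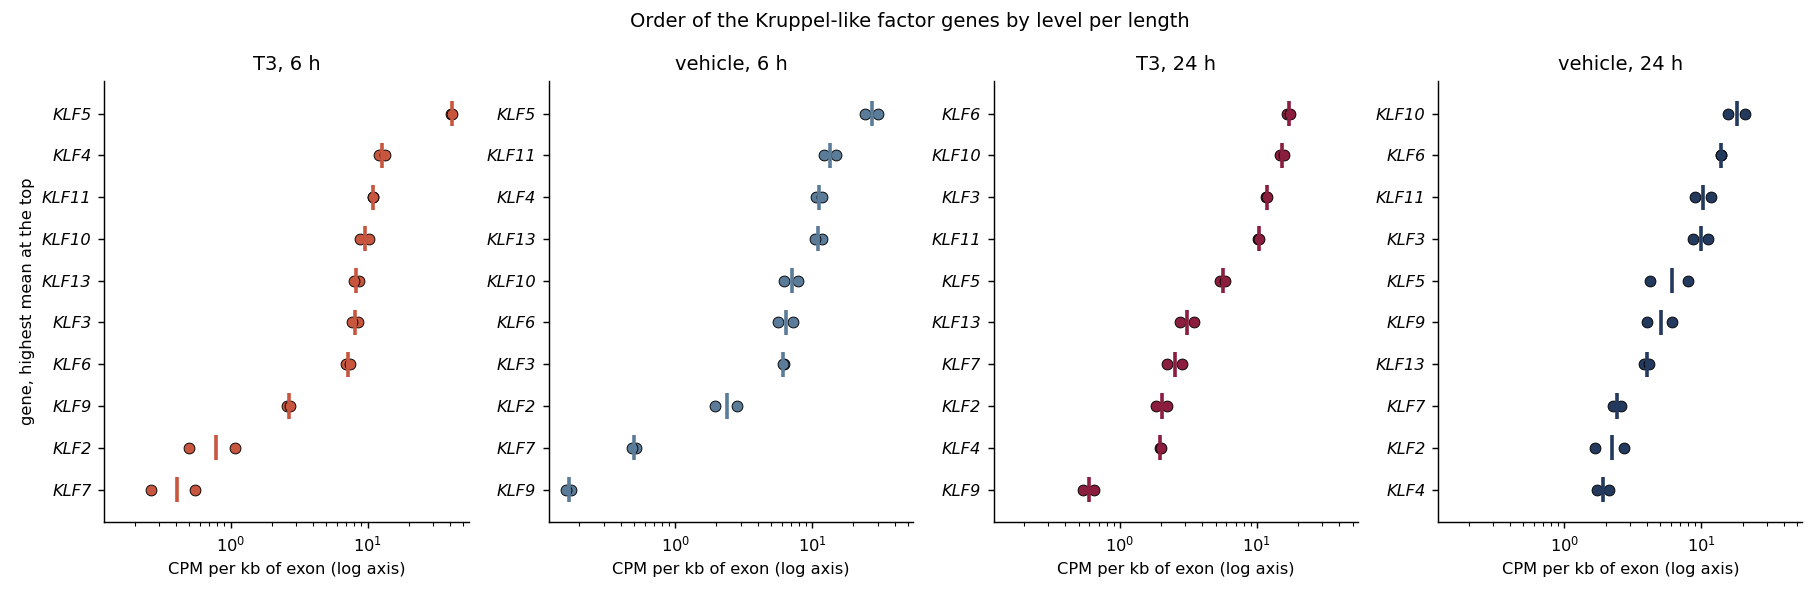
Level of each gene in CPM per kilobase of exon (horizontal log axes), with 1 panel per group, genes ordered by mean, points for the 2 libraries and a tick at the mean. KLF5 tops both 6 h panels, and KLF9 moves between the bottom place (vehicle at 6 h, T3 at 24 h), place 8 (T3 at 6 h) and place 6 (vehicle at 24 h).

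The genes most like KLF9 over the 8 libraries were sought among all others. Of 14550 tested genes averaging at least 1 CPM, the 5 with the highest Pearson correlation of log2 CPM with KLF9 were HEG1 (r = 0.996), NFKBIA (0.963), PHLDB2 (0.954), SLC35E4 (0.902) and TPM3 (0.892). These correlations describe 8 libraries that share treatments, times and depth. Of the 5, ranked for this likeness, HEG1 and PHLDB2 were called for T3 at both times, higher at 6 h and lower in the libraries labelled T3 at 24 h. NFKBIA, SLC35E4 and TPM3 passed at neither time (edgeR adjusted p from 0.123 to 0.386), and SLC35E4 had only 4 to 24 counts in a library. HEG1, a membrane glycoprotein of cell junctions, had 232.4 and 237.6 CPM with T3 and 83.2 and 89.2 CPM with vehicle at 6 h. After 24 h it had 129.1 and 127.6 CPM in the libraries labelled T3 and 268.4 and 292.1 CPM in those labelled vehicle. As with KLF9, the groups were apart in opposite directions, and the genes had been ranked for that likeness. NFKBIA, which encodes the NF-kB inhibitor I-kappa-B-alpha, spanned a much narrower range, with 112.2 and 109.4 CPM with T3 and 90.7 and 82.7 CPM with vehicle at 6 h, and 91.0 and 96.9 CPM in the libraries labelled T3 and 108.5 and 119.6 CPM in those labelled vehicle at 24 h. Of the other members, KLF10 was the most like KLF9, with r = 0.62 at rank 330, and KLF11 the least, with r = -0.65.

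**Figure D5:**
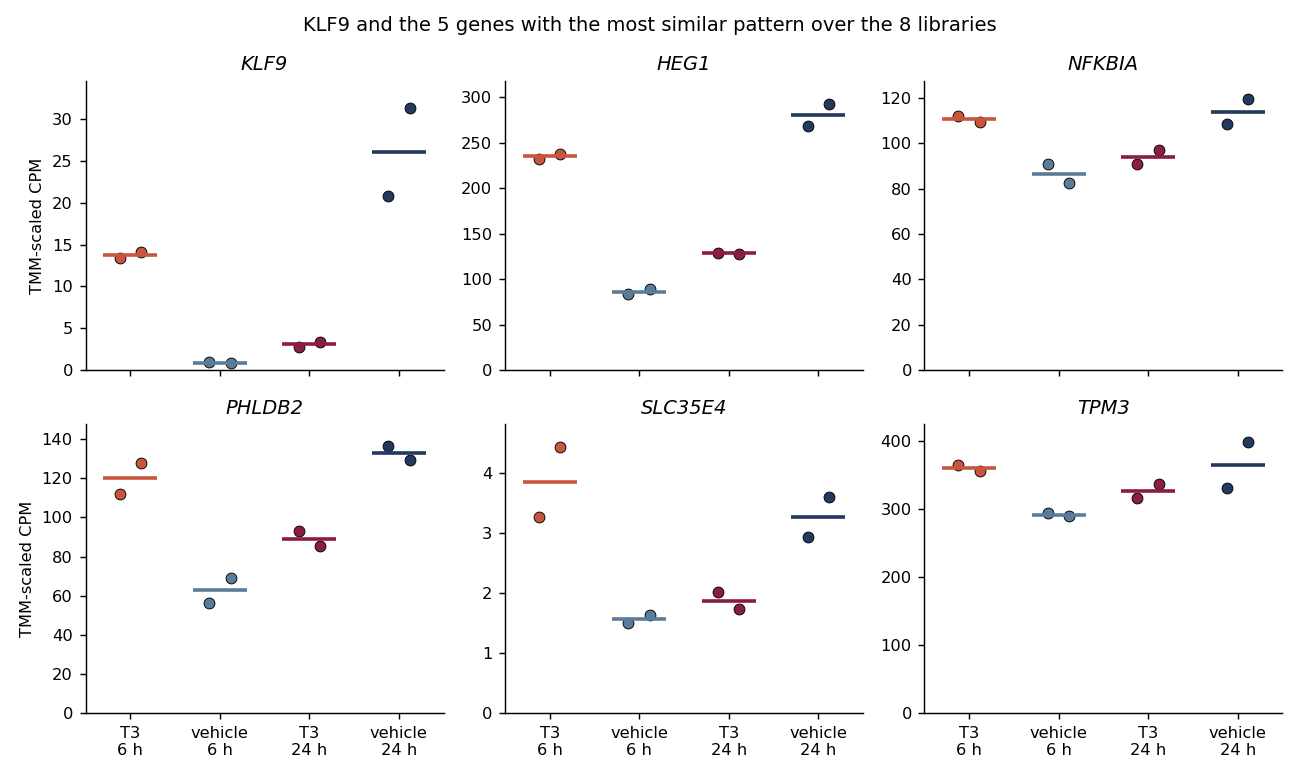
TMM-scaled CPM (vertical axes, each from 0) of KLF9 and the 5 genes ranked as most like it, in T3 and vehicle libraries at 6 h and 24 h, with 1 point per library and a line at the mean. In HEG1 the libraries of T3 at 6 h (232.4 and 237.6 CPM) and vehicle at 24 h (268.4 and 292.1 CPM) stand above the other 4, as in KLF9.

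Of 8 other KLF genes 4 passed the filter on low counts, and none of the 4 passed the test for T3 at 6 h. At 24 h KLF16, another SIN3A-binding member, averaged 4.83 ± 0.693 CPM in the libraries labelled T3 and 11.1 ± 1.64 CPM in those labelled vehicle. Its log2 fold change of -1.20 (edgeR adjusted p = 0.0113, SE 0.28) held in 11 of 15 alternatives, and not without vehicle replicate 2 of 24 h, with only the 24 h libraries fitted, or with GC and length correction (-0.50 at the smallest). The difference of its T3 responses was -0.73 (edgeR adjusted p = 0.33, SE 0.35). In vehicle, KLF16 (log2 fold change -2.45) and KLF15, which regulates fuel metabolism (-5.59, with 4 counts over the 24 h libraries), were lower at 24 h than at 6 h. KLF12 was higher (0.63), but not in DESeq2 or without vehicle replicate 1 of 6 h or vehicle replicate 2 of 24 h, and -0.34 at the lowest with GC and length correction. KLF1 and KLF18 had 0 counts in every library, and KLF8 and KLF14 had at most 1 count in a library, which the floor of 3 counts does not set apart from 0.

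Of 9 genes of the related SP family, whose proteins bind the same GC boxes, 5 were tested and none passed for T3 at 6 h. SP3 passed at 24 h with 251.8 ± 11.8 CPM in the libraries labelled T3 and 184.3 ± 38.5 CPM in those labelled vehicle (log2 fold change 0.45, edgeR adjusted p = 0.049), and it held in 3 of 15 alternatives and 1 of 8 with a library left out, namely vehicle replicate 2 of 24 h. In vehicle SP1, SP2 and SP3 were higher at 24 h than at 6 h, by 0.46, 0.75 and 0.96 on the log2 scale. SP1 and SP2 did not pass without vehicle replicate 1 of 6 h or vehicle replicate 2 of 24 h, and with GC and length correction SP1 (-0.00698 at the lowest) and SP3 (0.02 at the lowest) did not pass.

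Corepressors, coactivators and ubiquitin ligases that act with or on Kruppel-like factors were all measured, 15 genes in all. With T3 at 6 h 1 was higher and 0 lower, and at 24 h 3 were higher and 2 lower in the libraries labelled T3, where 7.64% of all genes were called at 6 h and 13.3% at 24 h. The median log2 fold change of the list was 0.06 at 6 h and -0.00477 at 24 h, against -0.02 and -0.01 over all genes. HDAC2, a deacetylase of the SIN3 complex, averaged 177.0 ± 4.07 CPM with T3 and 123.2 ± 3.36 CPM with vehicle at 6 h (log2 fold change 0.52, edgeR adjusted p = 0.0255), and it did not pass without any 1 of the 6 h libraries or with GC and length correction (0.28 at the smallest). At 24 h WWP1, a ubiquitin ligase of KLF2 and KLF5, averaged 84.1 ± 1.25 CPM in the libraries labelled T3 and 51.3 ± 5.18 CPM in those labelled vehicle (log2 fold change 0.71, edgeR adjusted p = 0.0046). CTBP1, a partner of KLF3, averaged 61.7 ± 0.810 CPM in the libraries labelled T3 and 93.4 ± 6.29 CPM in those labelled vehicle (log2 fold change -0.60, edgeR adjusted p = 0.00642). WWP1 and CTBP1 held whichever library was left out, but not with GC and length correction (highest edgeR adjusted p = 0.243 and 0.501). CTBP2 (0.39, edgeR adjusted p = 0.0455) and FBXW7, the substrate receptor of a ligase that marks KLF5 (0.54, edgeR adjusted p = 0.0309), held in 1 and 3 of 15 alternatives. The last of the 5, the acetyltransferase gene KAT2A, had -0.57 (edgeR adjusted p = 0.0238) and did not pass when the first vehicle library or the second T3 library of 24 h was left out, with only the 24 h libraries fitted, or with GC and length correction (-0.17 at the smallest).

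Other signals to which Kruppel-like factors respond were read from gene lists, beside 7.64% of all genes called for T3 at 6 h and 13.3% at 24 h. Of 20 circadian clock genes, 0 were higher and 1 lower at 6 h, and 1 was higher and 3 were lower in the libraries labelled T3 at 24 h. NR1D2, a repressor of the clock, averaged 162.5 ± 1.94 CPM in the libraries labelled T3 and 112.8 ± 7.30 CPM in those labelled vehicle at 24 h (log2 fold change 0.53, edgeR adjusted p = 0.0107), and it lost its call only with GC and length correction (edgeR adjusted p = 0.618 at the highest). PER1, a clock gene that glucocorticoids also induce, averaged 0.869 ± 0.571 CPM in the libraries labelled T3 and 3.75 ± 1.47 CPM in those labelled vehicle (-2.05, edgeR adjusted p = 0.0093). It did not pass without vehicle replicate 2 of 24 h, with only the 24 h libraries fitted, or with GC and length correction (highest edgeR adjusted p = 0.121). NR1D1, DBP and, at 6 h, BHLHE40 held in 5, 3 and 6 of 15 alternatives.

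Of 9 tested early targets of the glucocorticoid receptor, which also acts on KLF9, TNFAIP3 alone was higher at 6 h and PER1 alone lower at 24 h. TNFAIP3, an inhibitor of NF-kB signalling, averaged 179.0 ± 10.6 CPM with T3 and 111.0 ± 0.739 CPM with vehicle at 6 h (0.69, edgeR adjusted p = 0.00613), and it did not pass when either T3 library or the first vehicle library of that time was left out. Of 12 early TGF-beta targets, 1 was higher at 6 h, and 2 were higher and 2 lower at 24 h. SKIL, an inhibitor of SMAD signalling, averaged 142.2 ± 0.0108 CPM with T3 and 85.9 ± 19.2 CPM with vehicle at 6 h (0.74, edgeR adjusted p = 0.00706), and it lost its call without the same 3 libraries as TNFAIP3 and with GC and length correction. At 24 h the call of SKIL (higher) held in 11 of 15 alternatives and those of ID3 and JUNB (lower) in 10 and 9, and with GC and length correction SKIL turned to -0.04. Of 10 tested immediate early genes, 1 (IER3, held in 7 of 15 alternatives) was lower at 6 h and 3 at 24 h, led by FOSL1 with 42.8 ± 0.569 CPM in the libraries labelled T3 and 87.9 ± 22.4 CPM in those labelled vehicle (-1.04, edgeR adjusted p = 0.00203). FOSL1 held whichever library was left out, but not with GC and length correction (highest edgeR adjusted p = 0.165). Of 8 tested classical T3 targets other than KLF9, HR alone passed, at both times.

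Between times in vehicle, the clock list had 11 genes higher and 5 lower at 24 h, the glucocorticoid list 3 and 5, the TGF-beta list 3 and 8, the immediate early list 4 and 4, the coregulator list 5 and 5, and the classical T3 list 2 and 5. The median log2 fold changes were 0.66, -1.41, -1.75, -0.73, 0.22 and -0.55 in that order, against 0.03 over all genes, of which 64.5% passed.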

How the data were processed

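RNA from 8 Nthy-ORI libraries was analysed. Whole-number counts of reads per gene symbol were deposited by the authors without normalisation. Per the submitters' processing notes, CASAVA 1.7, STAR 2.7, HTSeq and DESeq2 were used with build hg38. Not given in the sources used here are the annotation release, strand setting and trimming.

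From these, 5 summary rows were left out. All genes passing edgeR's filterByExpr by group were fitted with TMM scaling and the robust quasi-likelihood F test (edgeR 4.0.16, R 4.3.3), 1 coefficient per group over 8 libraries with 4 residual degrees of freedom. The biological coefficient of variation was 13.1%. The 2 libraries of a group differed most in vehicle at 24 h, with a chi-square per degree of freedom of 27.0 over genes. It was 7.21 in the libraries labelled T3 at 24 h, 3.84 with vehicle at 6 h and 2.57 with T3 at 6 h. That measure also grows with depth. P-values were adjusted by Benjamini-Hochberg over 14611 genes at a threshold of 0.05. CPM are TMM-scaled, values are mean ± SD of 2 libraries, and SE and intervals of log2 fold changes come from the fit. Counting intervals are exact binomial 95% intervals. They and the floors cover counting error only, since no molecular identifiers mark which reads share a molecule.

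Positions, exon lengths and transcript GC content came from GENCODE 29 (GRCh38), which may not be the annotation used for counting. It matched 12577 tested genes by symbol. Promoter windows came from RefSeq (GRCh38.p14). Alternatives were RLE size factors, no filter on low counts, DESeq2 1.42.0, the compared libraries alone, a replicate block, offsets for GC content and length from lowess curves of span 0.3, both together, and each library left out. The test was also run on simulated counts for T3 at 6 h, with the same dispersion for all genes and no trend with GC content or length. That simpler setting does not show how well the test holds in these libraries. Members, lists (other KLF genes, SP genes, coregulators, circadian clock, glucocorticoid, TGF-beta, immediate early and classical T3 genes) and tests were chosen with earlier results of these data known. The text names all 10 members, HR and THRB, up to 4 genes past the threshold per list and comparison by smallest p, and the 5 genes most correlated with KLF9 by log2 CPM with a prior count of 2. Some listed genes are not reported here.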

Additional observations from a re-analysis of the deposited data

Results flagged for a closer look

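KLF9 was singled out because its responses to T3 differed between times by a test of the difference itself. The log2 response at 24 h less that at 6 h was -7.03 (edgeR adjusted p = 4.08e-06, SE 0.57), with every library labelled T3 above both vehicle libraries at 6 h and below both at 24 h. KLF9 and HR go against the 24 h labels, and both the size of this difference and its call rest on those labels. Only as labelled do the responses, 3.95 at 6 h and -3.08 at 24 h, have opposite signs. Whether the 24 h labels were exchanged was not tested.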

How the results depend on the processing

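Of 737 values of members under alternatives, 711 kept their side of the threshold, where values not past it could change sign. With the same sign, 14 newly passed and 8 no longer passed, and 4 changed sign with only 1 of the 2 fits past the threshold. Those 4 were KLF2 in vehicle over time, which newly passed, and KLF3 with T3 over time, which no longer passed. Each changed with GC and length offsets, alone and with the replicate block. For T3 at 6 h, 1 member was called, against 2 without a filter on low counts, 4 with only the libraries compared, 2 with the replicate block, and 1 to 2 when single libraries were left out. KLF5 was gained in each case (also without vehicle replicate 1 or 2 of 24 h), with KLF2 and KLF13 in the fit of the compared libraries. For the difference of T3 responses, 1 member was called, against 2 without the filter (KLF5 gained) and 1 to 3 when libraries were left out, with KLF5 and KLF10 gained without vehicle replicate 1 of 24 h. Over all genes, called numbers ranged from 131 without vehicle replicate 1 of 6 h to 2898 with only the libraries compared for T3 at 6 h (1117 as reported), from 78 with the block and the GC and length offsets to 2056 without T3 replicate 1 at 24 h (1948), and from 49 without T3 replicate 2 of 6 h to 750 without vehicle replicate 1 of 24 h for the difference (269). With GC and length offsets, alone and with the replicate block, KLF2 turned to 1.44 and 1.42 for vehicle over time, and KLF3 to -0.17 and -0.17 for T3 over time. KLF2 for T3 over time lost its call without the filter, in DESeq2, with only the libraries compared, and without replicate 2 of T3 or of vehicle at 6 h, and KLF3 without replicate 2 of T3 at 6 h. Ranked by Spearman's rho, 2 of the 5 genes most like KLF9 stayed. The causes were not tested. Replicate numbers did not pair the libraries (correlations of replicate deviations -0.04 to 0.10), and with the block KLF5 at 6 h passed (log2 fold change 0.60, edgeR adjusted p = 0.0465) and no other member's call changed. Without TMM scaling, 15 of 40 group levels moved beyond their SD, by -9.08% to 6.37%. Counts of 5 or fewer in KLF9 with vehicle at 6 h limit the precision of its fold change.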
